A study of Mus musculus with 12 samples.

Results

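The genes of oxidative phosphorylation, the process by which mitochondria turn the energy of electrons into ATP, were described across type 1 conventional dendritic cells (cDC1) of the mouse inguinal lymph node. Members were the protein-coding genes of the GENCODE M21 annotation whose symbols start with Nduf, Sdh followed by a, b, c or d, Uqcr, Cox4 to Cox8, Atp5, mt-Nd, mt-Co, mt-Cyt or mt-Atp. This rule, which uses names and no measured value, gave 111 of 53458 genes, of which 98 lie in the nuclear genome and 13 on the mitochondrial chromosome. RNA-seq values of 12 libraries were used, 3 in each of 4 groups. NoTumor-NoCD40 mice had neither tumor nor agonist, NoTumor-CD40 mice had the CD40 agonist alone, Tumor-NoCD40 mice had the tumor alone, and Tumor-CD40 mice had both. The tumor was a KPC line grown under the skin, KPC being a widely used pancreatic tumor model. An agonist of CD40 triggers a receptor on dendritic cells that T cells otherwise engage. All 4 groups share the lymph node and the cell type, and the labels give no strain, age, dose, time or sort gate. The labels do not say whether libraries come from separate animals, so a p-value here reflects only how these samples vary.

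Electrons from NADH enter the respiratory chain at complex I and those from succinate at complex II, which is also an enzyme of the TCA cycle. They pass through complex III and cytochrome c to oxygen at complex IV, and the proton gradient built on the way drives complex V, the ATP synthase. Complexes I, III, IV and V join subunits from both genomes, while complex II is built from nuclear genes alone, and assembly factors put the parts together without staying in them. Dendritic cells activated through pattern recognition receptors are known to rely more on glycolysis.

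Complex I had 46 nuclear members, of which 8 were assembly factors (Ndufaf), and 7 mitochondrial ones. Complex II had 8 nuclear members, of which 4 were assembly factors (Sdhaf), and none on the mitochondrial chromosome. Complex III had 8 nuclear members and mt-Cytb, complex IV had 18 nuclear members and 3 mitochondrial ones, and complex V had 18 nuclear members and 2 mitochondrial ones. Ndufa4 was counted with complex I by its symbol, although its protein is known as a part of complex IV. Of the members, 93 nuclear and all 13 mitochondrial genes passed the filter on low counts and were tested. The 5 others, Cox4i2, Cox7b2, Cox8b, Cox8c and Ndufa4l2, are isoforms known from other tissues, and none reached 0.5 CPM in any library.

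Deposited counts summed to between 22855143 and 27163393 per library. Levels are given in normalized CPM (library-size scaled counts after TMM), fold changes as log2 values ± their standard error (SE), and levels compared between genes in TPM, which is corrected for transcript length. The defining cDC1 markers were present in all 12 libraries, with Xcr1 from 49.5 to 780 CPM and Clec9a from 33.2 to 357 CPM. The summed level of 15 cDC1 markers ran from 15364 to 20613 CPM in NoTumor-NoCD40, from 4552 to 15790 in NoTumor-CD40, from 4119 to 21567 in Tumor-NoCD40 and from 8322 to 11595 in Tumor-CD40. Markers of other states and cells moved with the groups too. The sum of 15 markers of mature dendritic cells ran from 4998 to 11036 CPM in NoTumor-NoCD40, 12302 to 28391 in NoTumor-CD40, 5978 to 18991 in Tumor-NoCD40 and 11333 to 14404 in Tumor-CD40, and 5 of the 15 were called higher with the agonist without tumor. The sum of 16 B cell markers was 1435 to 3649 CPM in Tumor-CD40 against 287 to 667 in the other libraries, 11 of the 16 were called higher with the agonist in tumor-bearing mice, and the B cell marker Ms4a1 was above 0 in every library. The sum of 9 plasmacytoid dendritic cell markers was 163 to 246 CPM in the libraries without and 291 to 636 CPM in those with the agonist, with no overlap, and 3 of the 9 were called higher in the average agonist effect. Siglech, a marker of plasmacytoid dendritic cells, did not rise with this sum. Its group means were 2.05 CPM in NoTumor-NoCD40, 1.09 in NoTumor-CD40, 2.80 in Tumor-NoCD40 and 2.51 in Tumor-CD40. The sum of 10 stress-response genes ran from 3279 to 4377 CPM in NoTumor-NoCD40, 1165 to 3324 in NoTumor-CD40, 1373 to 2968 in Tumor-NoCD40 and 1021 to 1514 in Tumor-CD40. Without tumor, the summed levels of cell cycle genes (632 to 998 CPM untreated, 321 to 622 CPM with the agonist) and of monocyte markers (632 to 810 and 169 to 452 CPM) did not overlap either, while both overlapped between the groups with tumor. Single monocyte markers did not all follow their sum. Of the 9, 1 was called higher and 0 lower with the agonist without tumor, and 3 higher and 0 lower with tumor. In the average agonist effect 2 were called higher and 1 lower. The part of these differences in the results was not tested, and in bulk RNA fewer cells of a type and less RNA per cell cannot be told apart.

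The 98 nuclear members together took 0.709% to 1.0% of the counts of a library and the 13 mitochondrial members 2.37% to 5.39%. Per transcript length, the mean of the summed TPM was 14272 ± 873 (SD, n = 12) for the nuclear and 71433 ± 13344 (SD, n = 12) for the mitochondrial members. The mitochondrial sum was also the more variable across libraries. Its coefficient of variation in CPM was 24.3%, with a 2.25-fold range, against 10.4% and a 1.45-fold range for the nuclear sum.

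The nuclear sum was 9662, 10339 and 7908 CPM in the 3 NoTumor-NoCD40 libraries and 8903, 8682 and 7123 CPM in NoTumor-CD40. It was 8917, 9222 and 8107 CPM in Tumor-NoCD40 and 8576, 8129 and 7662 CPM in Tumor-CD40. The highest value lay in a library without tumor or agonist and the lowest in a library with the agonist alone, and the ranges of all 4 groups overlapped. The mitochondrial sum was 42806, 32207 and 42147 CPM in NoTumor-NoCD40 and 52604, 32418 and 23779 CPM in NoTumor-CD40. It was 52636, 34154 and 30634 CPM in Tumor-NoCD40 and 53594, 42160 and 37618 CPM in Tumor-CD40. The range within each group exceeded the largest difference between group means, which ran from 36267 ± 14793 CPM in NoTumor-CD40 to 44457 ± 8232 CPM in Tumor-CD40 (SD, n = 3).

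**Figure D1:**
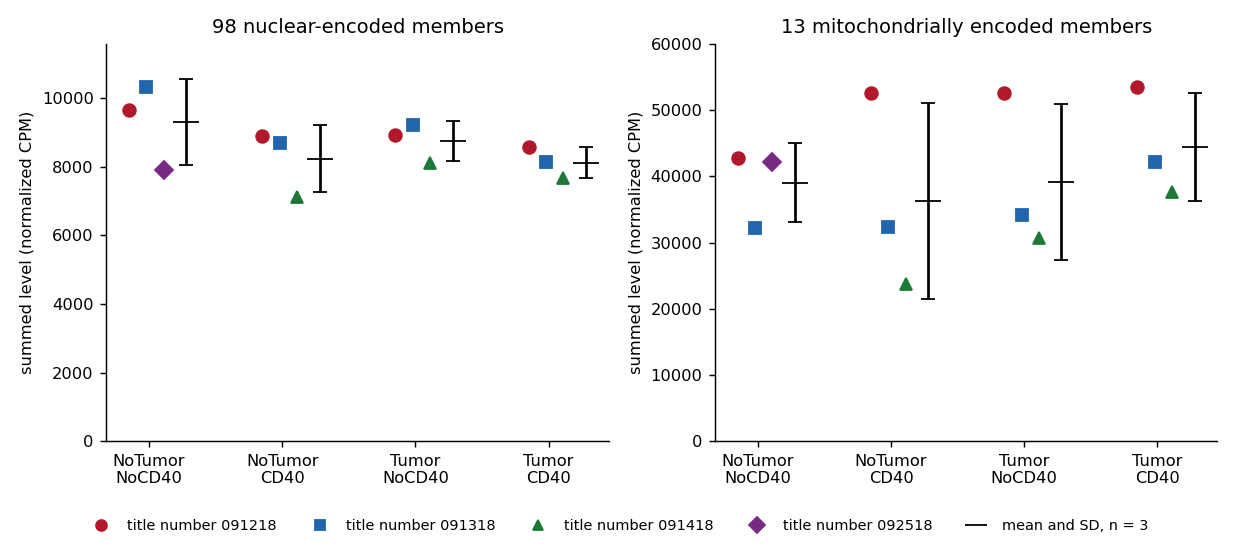
Summed level of the nuclear (left) and mitochondrially encoded (right) members in each library, in normalized CPM on axes from 0, by group, with the group mean and SD (n = 3) beside the points and the number that opens each library title as the symbol. Nuclear sums lie between 7123 and 10339 CPM, and the circles (title number 091218) hold the highest mitochondrial sum of every group, 42806 to 53594 CPM.

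The library titles open with a number whose meaning the labels do not give: 091218, 091318 and 091418 for libraries 1, 2 and 3 of a group, and 092518 in place of 091418 in NoTumor-NoCD40. The 4 libraries with 091218 had mitochondrial sums of 42806 to 53594 CPM, the 4 with 091318 32207 to 42160 CPM and the 3 with 091418 23779 to 37618 CPM. The mitochondrial ribosomal RNAs mt-Rnr1 and mt-Rnr2, which are not members, were also highest in the 091218 library of each group. The nuclear sums of these sets were closer, at 8576 to 9662, 8129 to 10339 and 7123 to 8107 CPM. With the agonist in tumor-bearing mice, the log2 difference of the mitochondrial sum was 0.03, 0.30 and 0.30 within the 3 numbers. Without tumor it was 0.30 and 0.01 within the 2 numbers that both groups share, while the group means over all libraries differed by -0.17, so the sign depended on the libraries set against each other. For the nuclear sum all 5 differences within a number were below 0, from -0.06 to -0.25.

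The log2 ratio of the mitochondrial to the nuclear sum was 2.07 ± 0.39 in NoTumor-NoCD40, 2.07 ± 0.44 in NoTumor-CD40, 2.12 ± 0.38 in Tumor-NoCD40 and 2.44 ± 0.18 in Tumor-CD40 (SD, n = 3, CPM). By library it was 2.15, 1.64 and 2.41 in NoTumor-NoCD40, 2.56, 1.90 and 1.74 in NoTumor-CD40, 2.56, 1.89 and 1.92 in Tumor-NoCD40, and 2.64, 2.38 and 2.30 in Tumor-CD40. Tumor-CD40 held the highest single value, and its range overlapped that of each other group. On sums of TPM, which allow for length, the means were 2.18, 2.17, 2.25 and 2.60 in the same order.

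Per transcript length, mt-Atp8 of the ATP synthase was highest, with a mean of 26035 ± 4864 TPM (SD, n = 12). This value belongs to a transcript of 204 bases that shares 43 bases with mt-Atp6, the other mitochondrial gene of the synthase. The genes of the catalytic core of complex IV followed, with mt-Co2 at 10432 ± 2232, mt-Co3 at 8652 ± 1789 and mt-Co1 at 6869 ± 1468 TPM, and then mt-Atp6 at 6825 ± 1148 TPM. Among complex I genes mt-Nd4l had 3464 ± 665 TPM and mt-Nd1 2181 ± 429 TPM, while mt-Cytb of complex III had 2307 ± 484 TPM. The lowest 3 were mt-Nd6 (988 ± 185 TPM), mt-Nd5 (753 ± 153 TPM) and mt-Nd3 (448 ± 218 TPM). The place of mt-Nd3 holds for counts assigned to the gene itself, since 78.2% of the joint counts went to a near-identical copy. mt-Nd6 is the only one of the 13 on the minus strand, and it overlaps mt-Nd5 on the plus strand by 14 bases. In counts, the 3 complex IV genes made up 62.2% of the mitochondrial sum on average (58.9% to 65.3% across libraries), complex I 19.2%, complex V 11% and complex III 7.6%. Neighbours in this order lay within an SD of each other in several places, as did mt-Co1 and mt-Atp6, or mt-Cytb and mt-Nd1.

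NoTumor-CD40 library 3 was the lowest library for 12 of the 13 mitochondrial genes, and mt-Nd3 was the exception. mt-Co1 was 13526, 10483 and 13390 CPM in NoTumor-NoCD40, 18085, 11483 and 7985 in NoTumor-CD40, 16867, 11445 and 9487 in Tumor-NoCD40, and 18801, 15531 and 12107 in Tumor-CD40. mt-Cytb was 3282, 2485 and 3277 CPM, then 3955, 2331 and 1727, then 4052, 2544 and 2377, then 4141, 2983 and 3051 CPM in the same order of groups. Both genes were high in library 1 of each group and their groups overlapped throughout. The largest log2 difference with the tumor in agonist-treated mice was that of mt-Nd4l, at 0.45 ± 0.23 (SE), with an adjusted p of 0.569 in edgeR. mt-Nd4l was 322, 258 and 359 CPM in NoTumor-NoCD40, 327, 235 and 186 in NoTumor-CD40, 387, 245 and 256 in Tumor-NoCD40, and 386, 298 and 338 in Tumor-CD40. mt-Nd6 was 555, 453 and 628 CPM without tumor or agonist and 639, 426 and 253 CPM with the agonist alone.

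**Figure D2:**
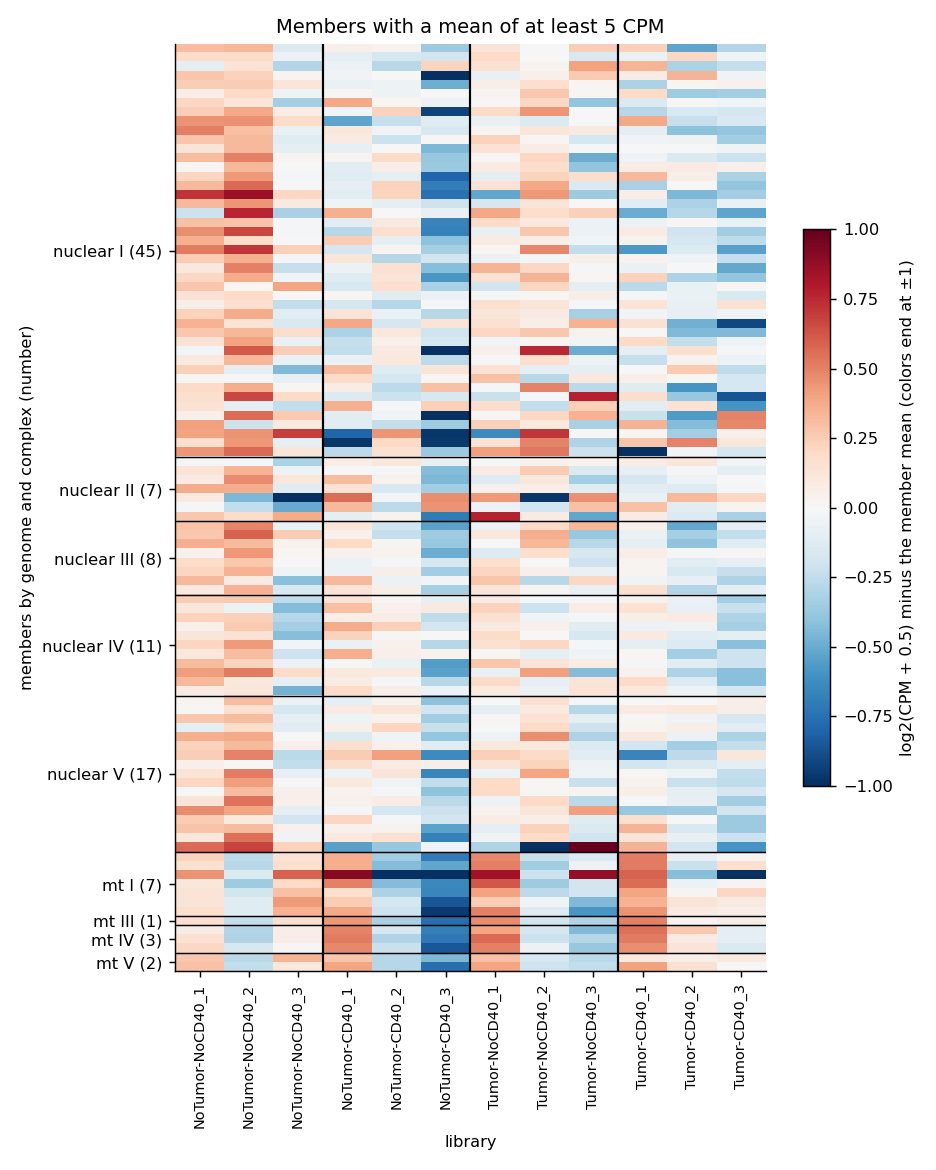
Level of the 101 members that average 5 CPM or more, in each of the 12 libraries, as log2(CPM + 0.5) minus the member's own mean, grouped by genome and complex, with colors ending at a difference of 1. NoTumor-CD40 library 3 is low for most nuclear members and for the mitochondrial ones, and library 1 of each group is high for the mitochondrial members.

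Single libraries held many of the extremes of the nuclear members. NoTumor-CD40 library 3 held the lowest value of 36 of the 93 tested members and NoTumor-NoCD40 library 2 the highest value of 47. The median distance from a member's own mean was -0.29 (log2) in the first library and 0.33 in the second. NoTumor-CD40 library 3 also had the highest sum of mature dendritic cell markers, 28391 CPM, and the part of this in its low values was not tested.

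The design allows 7 contrasts: the agonist without and with tumor, the tumor without and with the agonist, their interaction, and the agonist and tumor effects averaged over the other factor. Of the 106 tested members, the quasi-likelihood test of edgeR, adjusted by Benjamini-Hochberg over 18095 genes, called none at an adjusted p under 0.05 in any contrast. In the order above, the share of all genes called was 1.44%, 0.685%, 0%, 0.199%, 0%, 2.51% and 0.0166%. DESeq2 called 1 member, Ndufb8 in the average agonist effect, where it called 5.32% of all genes. In its other 6 contrasts DESeq2 called no member and 5.05%, 1.75%, 0.16%, 0.917%, 0.0995% and 0.674% of all genes. limma-trend on log2(TPM + 1) called no member, against 0.171%, 0.16%, 0%, 0.0663%, 0.0111%, 0.735% and 0.0111% of all genes.

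At an unadjusted p under 0.05 in edgeR, 10 nuclear members passed for the agonist without tumor, 4 for the agonist with tumor and 17 for the average agonist effect, against 18.4%, 9.96% and 17.5% of all genes tested. For the tumor without and with the agonist, the interaction and the average tumor effect, 1 nuclear member passed in each, against 5.82%, 9.32%, 9.8% and 6.78% of all genes. No mitochondrial member passed in any contrast. With 93 nuclear members tested, these counts are smaller shares than those of all genes in each contrast but the average agonist effect. In the average agonist effect all 17 were below 0, as were 1466 of the 3171 genes of all those tested that passed. The median 95% interval of a nuclear member reached 0.43 on the log2 scale to either side for the agonist without tumor and 0.30 for the average agonist effect. It reached 0.65 and 0.46 for the mitochondrial members. Smaller differences in single members were mostly not detectable at this spread, even without adjustment. These intervals are not adjusted for the number of genes tested, so larger differences could also go uncalled at the adjusted threshold.

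Although edgeR called no single member at the adjusted threshold, nuclear members lay mostly on one side for the agonist. For the average agonist effect 82 of 93 were below 0, with a median log2 fold change of -0.21, against 53.2% and a median of -0.03 over all genes tested. Without tumor 74 of 93 were below 0 with a median of -0.28 (all genes 52.3%, -0.04), and with tumor 79 of 93 with a median of -0.145 (all genes 51.8%, -0.02). Leaving out NoTumor-CD40 library 3 brought the median without tumor to -0.18. By complex, 42 of 45 tested members of complex I were below 0 in the average agonist effect (median -0.26), 8 of 8 of complex III (-0.19), 16 of 18 of complex V (-0.20), 11 of 14 of complex IV (-0.10) and 5 of 8 of complex II (-0.09). The median of the mitochondrial members was -0.20 for the agonist without tumor, 0.12 with tumor and -0.03 on average, and when each library was left out in turn the first ran from -0.545 to 0 (without NoTumor-CD40 libraries 1 and 3) and the second from 0.011 to 0.425. Members measured in the same libraries are not independent, so these counts carry no test.

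**Figure D3:**
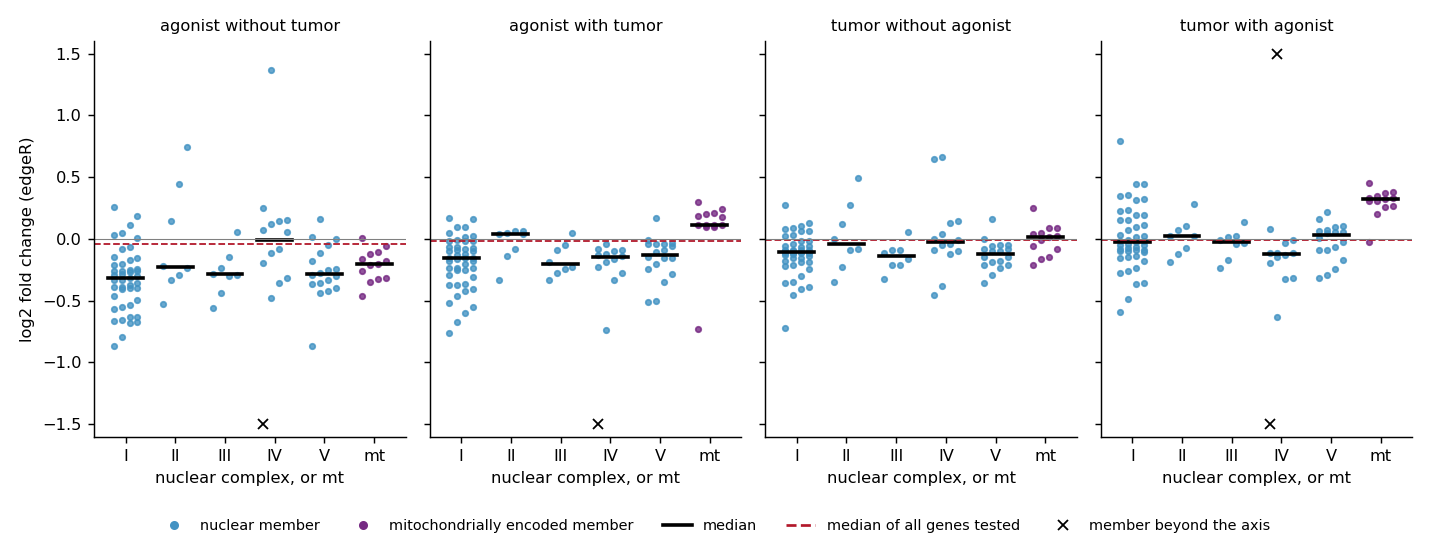
edgeR log2 fold change of each tested member in the 4 pairwise comparisons, with nuclear members split by complex (I to V), the 13 mitochondrially encoded members (mt), black bars for medians and a dashed line for the median of all genes tested. In the first panel most members of complexes I, III and V lie below the dashed line, and crosses at the edge stand for Cox6a2 and Cox7a1, which were near 0 CPM.

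Ndufb8 (ENSMUSG00000025204, chr19:44548572-44555440 on the minus strand of GRCm38), an accessory subunit of the membrane arm of complex I, came closest to the threshold. It was 85.7, 98.2 and 70.4 CPM in NoTumor-NoCD40 and 53.2, 60.9 and 47.3 CPM in NoTumor-CD40. It was 60.7, 83.4 and 50.2 CPM in Tumor-NoCD40 and 40.0, 54.4 and 40.8 CPM in Tumor-CD40. The agonist groups lay below without overlap in mice without tumor, and 1 agonist library lay above 1 untreated library in tumor-bearing mice. The average agonist effect was -0.59 ± 0.15 (SE; 95% interval -0.91 to -0.26), with an adjusted p of 0.0590 in edgeR and 0.0201 in DESeq2. In edgeR it was 0.0423 without NoTumor-CD40 library 2 and 0.0325 without Tumor-NoCD40 library 3, and over all alternatives it ran from 0.0181 to 0.292.

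Ndufs6 (ENSMUSG00000021606, chr13:73319838-73328542, minus strand), an accessory subunit of the matrix arm of complex I, showed the same order. It was 40.1, 41.9 and 37.4 CPM in NoTumor-NoCD40, 26.5, 35.7 and 28.8 in NoTumor-CD40, 38.3, 40.0 and 34.0 in Tumor-NoCD40, and 33.1, 24.3 and 24.3 in Tumor-CD40. The agonist libraries lay below the untreated ones without overlap with and without tumor, with an average effect of -0.43 ± 0.13 (SE) and an adjusted p of 0.114 in edgeR. Ndufa6, a small subunit that binds the acyl carrier protein, was 100 ± 19.5 CPM in NoTumor-NoCD40, 82.4 ± 7.38 in NoTumor-CD40, 88.3 ± 2.85 in Tumor-NoCD40 and 68.2 ± 8.44 in Tumor-CD40 (SD, n = 3). Its groups overlapped without tumor and did not with tumor, and its average effect was -0.33 ± 0.12 (SE; adjusted p 0.177 in edgeR).

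Ndufb2, another membrane-arm subunit, was 35, 38.3 and 24.3 CPM in NoTumor-NoCD40, 19.5, 24.5 and 12.3 in NoTumor-CD40, 14.5, 28.5 and 16.3 in Tumor-NoCD40, and 22.0, 15.2 and 16.4 in Tumor-CD40. Its log2 fold changes were -0.79 ± 0.30 for the agonist without tumor and -0.72 ± 0.30 for the tumor without agonist (SE), with adjusted p of 0.199 and 0.775 in edgeR, and leaving out single libraries took them to between -1.03 and -0.566 and between -1.078 and -0.519. Ndufa5, of the peripheral arm, was 19.4, 19.5 and 16.0 CPM in NoTumor-NoCD40, 9.58, 11.9 and 12.9 in NoTumor-CD40, 13.3, 12.7 and 14.1 in Tumor-NoCD40, and 18.4, 11.9 and 12.6 in Tumor-CD40. All 3 NoTumor-NoCD40 libraries lay above the NoTumor-CD40 and Tumor-NoCD40 libraries. The comparisons of both genes share those 3 libraries, and the interaction for Ndufa5 was 0.77 ± 0.33 (SE; adjusted p 0.497 in edgeR). Of the counts of Ndufa5, 73.9% were assigned to transcripts annotated as non-coding. Its log2 fold change for the agonist without tumor ran from -1.956 to -0.641 under other settings that kept all libraries.

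Of the 2 nuclear complex I subunits with the highest mean TPM, Ndufa3 had 419 ± 46.1 TPM in NoTumor-NoCD40, 491 ± 34.2 in NoTumor-CD40, 426 ± 70.6 in Tumor-NoCD40 and 423 ± 54.3 in Tumor-CD40, and Ndufa10 had 239 ± 16.7, 255 ± 8.70, 243 ± 68.7 and 262 ± 26.1 TPM (SD, n = 3). For Ndufa3 the NoTumor-CD40 libraries (456 to 525 TPM) lay above those of NoTumor-NoCD40 (366 to 453 TPM) and Tumor-CD40 (360 to 455 TPM). Its other pairs of groups overlapped in TPM, and in CPM all of its groups overlapped. All groups of Ndufa10 overlapped in TPM. Most of their counts, 93.6% for Ndufa3 and 82.5% for Ndufa10, were assigned to transcripts annotated as non-coding. This held for over 50% of the counts of 16 of the 93 tested nuclear members, 12 of them in complex I, so their levels as messenger RNA are less certain. Ndufs3, of the catalytic core, was another, with 91.8%.

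Assembly factors of complex I were low in level, with mean TPM from 5.70 (Ndufaf4) to 35.9 (Ndufaf2 and Ndufaf8). Ndufaf8, which works with Ndufaf5, had the largest average agonist effect of the complex, -0.61 ± 0.22 (SE; adjusted p 0.172 in edgeR). It was 17.6, 19.2 and 14 CPM in NoTumor-NoCD40, 10.6, 14.3 and 9.79 in NoTumor-CD40, 17.2, 18.7 and 11 in Tumor-NoCD40, and 5.45, 12.6 and 11.3 in Tumor-CD40, so that groups with and without the agonist overlapped. Ndufaf7, a methyltransferase needed for complex I assembly, differed with the tumor in agonist-treated mice by 0.79 ± 0.33 (SE; adjusted p 0.496 in edgeR). It was 7.69, 18.0 and 7.73 CPM in NoTumor-CD40 and 19.0, 22.2 and 16.9 CPM in Tumor-CD40. Without NoTumor-CD40 library 2, its effect of the agonist without tumor went from -0.68 to -1.20, with an adjusted p of 0.0400 in edgeR, while without library 1 of that group it was -0.455 (adjusted p 0.573 in edgeR) and without library 3 it was -0.47 (adjusted p 0.683 in edgeR).

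**Figure D4:**
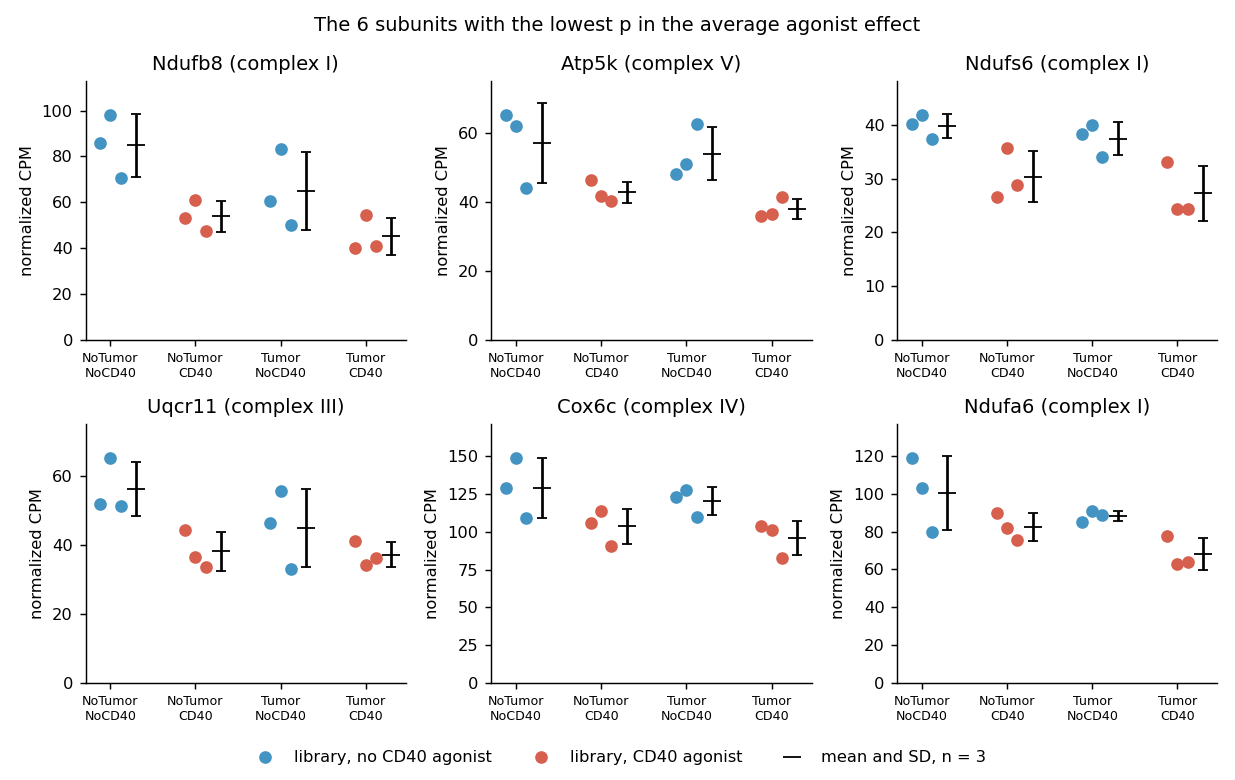
Normalized CPM of Ndufb8, Atp5k, Ndufs6, Uqcr11, Cox6c and Ndufa6 in each library by group, blue without and red with the CD40 agonist, with the group mean and SD (n = 3), on axes from 0. Red points lie low beside the blue ones in both pairs, with 1 or more overlapping points in 5 of the 6 genes and none for Ndufs6.

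In complex II, 5 of 8 members were below 0 for the agonist without tumor and 3 of 8 with tumor. Sdha, the catalytic subunit that oxidizes succinate, was 220, 220 and 178 CPM in NoTumor-NoCD40, 233, 240 and 211 in NoTumor-CD40, 221, 227 and 227 in Tumor-NoCD40, and 234, 242 and 218 in Tumor-CD40. The Tumor-NoCD40 libraries lay just above those of NoTumor-NoCD40, all other pairs of groups overlapped, and the average agonist effect was 0.09 ± 0.10 (SE; adjusted p 0.669 in edgeR). Sdhc, a membrane anchor, had the largest average tumor effect of the complex, -0.21 ± 0.15 (SE; adjusted p 0.901 in edgeR). The assembly factor Sdhaf4, which acts on Sdha, had an average agonist effect of -0.43 ± 0.25 (SE; adjusted p 0.390 in edgeR). Leaving out single libraries took the Sdhc value to between -0.281 and -0.105 and the Sdhaf4 value to between -0.565 and -0.22. Sdhaf1, which helps to place iron-sulfur clusters in Sdhb, went the other way, at 57.3, 39.1 and 26.4 CPM in NoTumor-NoCD40 and 79.1, 52.5 and 74.2 CPM in NoTumor-CD40. Its log2 fold change was 0.74 ± 0.34 (SE) without and 0.065 ± 0.34 with tumor, with adjusted p of 0.266 and 0.976 in edgeR.

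In complex III, Uqcr11 (ENSMUSG00000020163, chr10:80402997-80406830, minus strand), a small accessory subunit, had the largest average agonist effect. It was 52.0, 65.3 and 51.4 CPM in NoTumor-NoCD40, 44.5, 36.4 and 33.5 in NoTumor-CD40, 46.3, 55.7 and 33.0 in Tumor-NoCD40, and 41.1, 34.1 and 36.3 in Tumor-CD40. The agonist libraries lay below without overlap in mice without tumor and overlapped in tumor-bearing mice, and the average effect was -0.42 ± 0.15 (SE; adjusted p 0.159 in edgeR). Uqcrh and Uqcrq, the nuclear subunits with the highest mean TPM, had average agonist effects of -0.085 ± 0.15 and -0.12 ± 0.13 (SE; adjusted p 0.804 and 0.678 in edgeR). Uqcrb had the largest average tumor effect of the complex, -0.19 ± 0.14 (SE; adjusted p 0.919 in edgeR). Cyc1, the cytochrome c1 of this complex, does not carry a member's symbol. It was 83.7, 104 and 77.4 CPM in NoTumor-NoCD40 and 65.3, 74.6 and 43.7 CPM in NoTumor-CD40, with a log2 fold change of -0.53 ± 0.20 (SE; adjusted p 0.195 in edgeR). For the agonist with tumor the log2 fold change of Cyc1 was 0.056 ± 0.20 (SE; adjusted p 0.964 in edgeR). Its mobile partner Cycs was 47.3, 45.1 and 32.2 CPM in NoTumor-NoCD40 and 37.3, 34.6 and 15 CPM in NoTumor-CD40. For the agonist with tumor Cycs had -0.15 ± 0.33 (SE; adjusted p 0.934 in edgeR).

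In complex IV, 7 of 14 tested members were below 0 for the agonist without tumor (median -0.011) and all 14 with tumor (median -0.15). Cox4i1, a regulatory subunit, was 460, 465 and 326 CPM in NoTumor-NoCD40, 425, 394 and 367 in NoTumor-CD40, 410, 383 and 385 in Tumor-NoCD40, and 397, 370 and 306 in Tumor-CD40. Cox6b1, the nuclear member with the highest mean TPM, had group means from 699 ± 75.7 to 823 ± 67.8 TPM (SD, n = 3). The groups of Cox4i1 overlapped in CPM, and for Cox6b1 in TPM the NoTumor-CD40 libraries (778 to 901) lay above those of NoTumor-NoCD40 (616 to 765) and Tumor-CD40 (739 to 777), with no such separation in CPM. Cox6c, a small membrane subunit, was 129, 149 and 109 CPM in NoTumor-NoCD40, 106, 114 and 90.8 in NoTumor-CD40, 123, 128 and 110 in Tumor-NoCD40, and 104, 101 and 82.7 in Tumor-CD40. Its average agonist effect was -0.32 ± 0.12 (SE; adjusted p 0.176 in edgeR), with overlap between groups without tumor only. Among complex IV members averaging 5 CPM or more, Cox7b had the largest average effects of both factors, -0.35 ± 0.16 for the agonist and -0.26 ± 0.16 for the tumor (SE; adjusted p 0.287 and 0.880 in edgeR), which ran from -0.436 to -0.225 and from -0.384 to -0.157 when each library was left out. Cox7a2l, which joins complexes III and IV in supercomplexes, was 461 ± 59.9 CPM in NoTumor-NoCD40, 359 ± 70.2 in NoTumor-CD40, 459 ± 34.2 in Tumor-NoCD40 and 380 ± 24.7 in Tumor-CD40 (SD, n = 3).

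The isoforms of complex IV were those of most tissues. Cox4i1, Cox6a1, Cox6b1, Cox7a2 and Cox8a had mean TPM of 559, 135, 761, 258 and 223. Cox6b2 had a mean of 3.38 TPM, and Cox7a1 and Cox6a2, isoforms known from heart and muscle, had 0.647 and 0.251 TPM. Cox6a2 did not exceed 0.661 CPM in any library. Cox8c had no count in any library. In complex I, Ndufa4 had a mean of 244 TPM and its isoform Ndufa4l2 0.20 TPM.

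In complex V, Atp5k (ENSMUSG00000050856, chr5:108433244-108434448, minus strand), subunit e of the part that joins synthases in pairs, came second to Ndufb8. It was 65.4, 62.1 and 44.0 CPM in NoTumor-NoCD40, 46.3, 41.7 and 40.4 in NoTumor-CD40, 48.1, 51.2 and 62.7 in Tumor-NoCD40, and 36.0, 36.5 and 41.4 in Tumor-CD40. The agonist libraries lay below without overlap in tumor-bearing mice, while 1 untreated library lay below 1 agonist library without tumor. The average effect was -0.46 ± 0.13 (SE; 95% interval -0.74 to -0.18), with an adjusted p of 0.0834 in edgeR. Atp5b, the catalytic beta subunit, was 856 ± 102, 855 ± 100, 799 ± 106 and 900 ± 14.1 CPM in the order of groups above (SD, n = 3), and its average effect was 0.085 ± 0.12 (SE; adjusted p 0.756 in edgeR). Atp5e, the epsilon subunit, was 214 ± 29.6, 158 ± 19.1, 189 ± 53.3 and 170 ± 25 CPM (SD, n = 3). Atp5f1, of the peripheral stalk, was 281, 299 and 248 CPM in NoTumor-NoCD40, 267, 246 and 220 in NoTumor-CD40, 257, 257 and 217 in Tumor-NoCD40, and 209, 189 and 202 in Tumor-CD40. The Tumor-CD40 libraries lay below those of the other groups, and the average tumor effect was -0.235 ± 0.10 (SE; adjusted p 0.711 in edgeR), the largest of the complex. Under other settings that kept all libraries this effect of Atp5f1 ran from -0.247 to -0.036. Of the counts of Atp5f1, 65.7% were assigned to transcripts annotated as non-coding. The largest average agonist effect of the complex, -0.68 ± 0.38 (SE; adjusted p 0.369 in edgeR), belonged to the second of a pair of Ensembl identifiers named Atp5o (ENSMUSG00000116933). It overlaps the main Atp5o gene (ENSMUSG00000022956) by 1769 bases on chromosome 16 and had 4.75 to 8.66 CPM as group means, so reads of the pair may be split between them. Without Tumor-NoCD40 library 3, its highest library, this effect was -0.11.

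With the tumor as the factor, the nuclear median was -0.10 without and -0.035 with the agonist and -0.06 on average, against -0.01, -0.01 and -0.01 over all genes. When each library was left out in turn, these nuclear medians ran from -0.197 to 0.007, from -0.102 to 0.023 and from -0.098 to -0.007, and without NoTumor-NoCD40 library 2 the members below 0 for the tumor without agonist went from 71 to 45 of 93. The mitochondrial median was 0.015 without the agonist, 0.32 with it and 0.16 on average, and all 13 mitochondrial members were above 0 on average. Without NoTumor-CD40 library 3 the median of 0.32 came to 0.12, and without NoTumor-CD40 library 1 to 0.69. The interaction had a median of 0.10 for nuclear and 0.31 for mitochondrial members, against 0.03 over all genes, and no member was called. The 4 pairwise comparisons share groups, so their values are not independent of each other.

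Promoters of nuclear respiratory genes are known for binding sites of NRF1 and of the ETS factor GABPA, which also act on the gene of Tfam, the factor that starts mitochondrial transcription. RefSeq windows from 250 bases before to 50 after a start (GRCm38.p6) matched 78 of the 98 nuclear members, with 83 windows. The NRF1 core GCGCANGCG, on either strand, was in 30.1% of these against 6.25% of 32851 windows of the same length, and the ETS core CCGGAAG in 25.3% against 8.86%. The YY1 core AAGATGGCG was in 9.6% against 1.4%, the SP1 box GGGCGG in 45.8% against 35.7% and the ERRA half-site TCAAGGTCA in 2.4% against 0.423%. Windows of mitochondrial and cytosolic ribosomal protein genes held the NRF1 core in 21.3% and 12.8%, the ETS core in 34.7% and 30.2%, the YY1 core in 10.7% and 6.98% and the SP1 box in 52.0% and 59.3%, so these letters are not particular to the members. By complex, the NRF1 core was in 11 of 42 windows of complex I, 4 of 7 of complex II, 2 of 5 of complex III, 1 of 13 of complex IV and 7 of 16 of complex V. The 4 members with the lowest p in the average agonist effect were Ndufb8, Atp5k, Ndufs6 and Uqcr11. Atp5k and Ndufs6 held the NRF1 core and Uqcr11 the ETS core upstream of the RefSeq start, while Ndufb8 had only the SP1 box. These 4 were picked by p. Single cores were in 30.1% and 25.3% of all member windows, and the share with either was not counted. No excess of cores is therefore read from these 4. A link of the cores to the agonist effect was not tested. The RefSeq start can lie inside the GENCODE gene coordinates given above. The cores are shown here in capitals within up to 10 flanking bases. The Atp5k stretch (chr5:108434431-108434459) holds 2 overlapping NRF1 matches that read alike on both strands. The Ndufs6 stretch (chr13:73328483-73328507) holds the core on the opposite strand, and the Uqcr11 stretch (chr10:80406871-80406897) holds the ETS core. All are written 5′ to 3′ on the gene's own, minus, strand:
Atp5k: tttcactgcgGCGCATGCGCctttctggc
Ndufs6: gactgctgtgCGCCTGCGCcggcac
Uqcr11: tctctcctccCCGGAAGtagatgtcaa
Matches are a description of letters and not of binding.

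Near-identical copies bear on how counts are shared. Annotated pseudogenes with at least 90% identity over at least 50% of their length numbered 59, as copies of 36 members. For 10 members over 10% of the counts of member and copies together were assigned to copies. The share was 84.9% for Ndufb4 (2 copies), 66.4% for Atp5l (10 copies), 63.1% for Atp5g2, 52.9% for Cox7c and 51.3% for Atp5g1. Among mitochondrial genes it was 78.2% for mt-Nd3, 24.4% for mt-Atp6, 20.4% for mt-Nd4 and 16.6% for mt-Co1. The copies that took most of these counts lie on chromosome 1, where a stretch of the mitochondrial chromosome is present in the nuclear genome. The copies of mt-Atp6 (Gm10925, 678 bases) and mt-Nd4 (Gm28439, 876 bases) had 0 mismatches to the gene. The copy of mt-Nd3 (Gm28438) differed in 1 of 345 bases, T3C, with positions counted from the first base of the mt-Nd3 transcript. The first bases of both are shown with that position in capitals, from chrM:9459-9486 on the plus strand and chr1:24613092-24613119 on the minus strand of GRCm38:
mt-Nd3: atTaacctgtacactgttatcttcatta
Gm28438: atCaacctgtacactgttatcttcatta
A read that lies within these 345 bases and does not cover this base cannot be told apart between the 2 places.

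**Figure D5:**
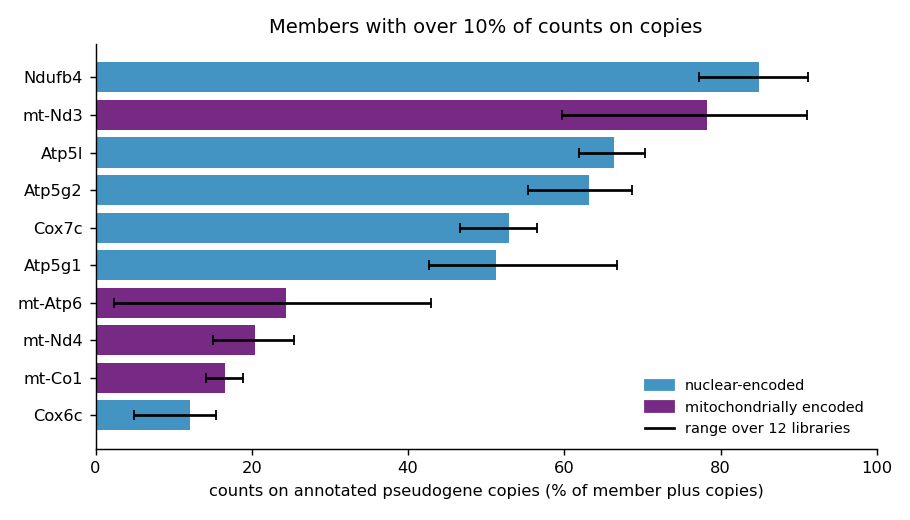
Share of the counts of a member and its annotated pseudogene copies that was assigned to the copies, in percent over all libraries, with the range over the 12 libraries as lines, for the 10 members above 10%. Ndufb4 (84.9%) and mt-Nd3 (78.2%) are highest, and mt-Atp6 has the widest range, from 2.35% to 42.9%.

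The spread of single members differed with and without their copies. mt-Nd3 was 94.2, 62.8 and 104 CPM in NoTumor-NoCD40, 130, 26.7 and 33.5 in NoTumor-CD40, 124, 59.2 and 127 in Tumor-NoCD40, and 104, 51.2 and 32.1 in Tumor-CD40, a 4.87-fold range. With its copy added the range was 2.36-fold, from 218.2 to 515.5 CPM, near the 2.25-fold range of the mitochondrial sum. Its log2 fold change for the agonist with tumor, -0.73 ± 0.53 (SE), came to 0.044 with the copy added, with adjusted p of 0.718 and 0.980 in edgeR. For mt-Atp6 the range was 1.73-fold alone and 2.50-fold with the copy. Ndufb4 alone did not exceed 9.82 CPM, and with copies ran from 27.19 to 47.95 CPM.

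Other genes of the pathway gave a background for the direction. Of 45 electron carriers and assembly factors without a member's symbol, 1 was called for the agonist without tumor, Acad9, an assembly factor of complex I. It was 31.7, 43.0 and 42.9 CPM in NoTumor-NoCD40, 22.6, 20.6 and 20.3 in NoTumor-CD40, 29.3, 30.2 and 28 in Tumor-NoCD40, and 29.7, 26.1 and 38.6 in Tumor-CD40. The NoTumor-CD40 libraries lay below all others, and the log2 fold change was -0.89 ± 0.20 (SE; adjusted p 0.0401 in edgeR). In the same contrast 0 of 16 genes of the TCA cycle and pyruvate dehydrogenase were called in edgeR, with a median of -0.24 and 1 at an unadjusted p under 0.05. Of 78 mitochondrial ribosomal proteins, Mrpl12 and Mrpl41 were called lower (median -0.235). Of 92 tested cytosolic ribosomal proteins, Rpl9-ps6 was called lower, a gene annotated as protein-coding despite its pseudogene symbol (median -0.38). These calls stand beside 1.44% of all genes tested that edgeR called in this contrast. The median of the nuclear members, -0.28, thus lay between those of the ribosomal lists, and a difference between these lists was not tested. With tumor the medians were -0.145 for the nuclear members, -0.08 for the mitochondrial and -0.04 for the cytosolic ribosomal proteins. The other lists lay near 0 with tumor. Their medians were 0.026 for the carriers and assembly factors (17 of 45 below 0), -0.028 for the TCA list and 0.008 for mitochondrial DNA maintenance and transcription. In the average agonist effect the median was -0.206 for the nuclear members, -0.208 for the cytosolic and -0.144 for the mitochondrial ribosomal proteins.

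Nuclear members are short and abundant. Their median transcript length was 583 bases against 1781 for all genes tested, and their median level 60.98 CPM against 8.83. Among the 10222 tested genes averaging 5 CPM or more the median of the average agonist effect was -0.05, against -0.205 for the 88 nuclear members at that level. The part of length in the median was not tested.

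No regulator of mitochondrial biogenesis was called for the agonist. Ppargc1a (PGC-1 alpha), the coactivator best known for raising respiratory genes, did not exceed 1.19 CPM in any library, and Ppargc1b did not exceed 3.96 CPM. Tfam was 25.6, 27.1 and 27.5 CPM in NoTumor-NoCD40, 26.6, 24.8 and 19.4 in NoTumor-CD40, 34.1, 27.2 and 32.1 in Tumor-NoCD40, and 41.8, 28 and 35 in Tumor-CD40. All Tumor-CD40 libraries lay above those of NoTumor-CD40, and the average tumor effect was 0.39 ± 0.14 (SE; adjusted p 0.601 in edgeR). Polrmt, the RNA polymerase of mitochondria, was 14 ± 2.65, 12.8 ± 3.71, 12.9 ± 1.16 and 12.7 ± 3.40 CPM in the order of groups above (SD, n = 3). Of 22 genes of mitochondrial DNA maintenance and transcription, edgeR called 0 in the agonist contrast without tumor, with 5 at an unadjusted p under 0.05 and a median of -0.20.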

How the data were processed

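Per the labels' protocols, total RNA was taken with a column kit and made into directional libraries. The authors deposited expected counts per transcript, estimated with Salmon on mm10 per the submitters' processing notes (versions are not given in the sources used here), and TPM values per transcript. Of 136288 deposited transcripts, 136176 were matched by GENCODE M21 to 53458 genes and summed, and the 112 others held 0.0279% to 0.0457% of the counts. Gene sums were rounded to whole numbers. edgeR 4.0.16 in R 4.3.3 was run on all 12 libraries in 4 groups with TMM factors, filterByExpr (minimum count 10, minimum total 15; 18095 genes kept), a quasi-likelihood fit with 8 residual degrees of freedom and Benjamini-Hochberg adjustment at 0.05, and was tested on simulated data. DESeq2 1.42.0 and limma 3.58.1 were alternatives. The SE is the fold change divided by the root of its F statistic. Pseudogene copies were found with blastn 2.17.0 among 4530 pseudogenes (at least 90% identity over at least 50% of the pseudogene). Named were the mitochondrial members, any called nuclear member, the 2 highest by TPM in each complex, the largest average agonist and tumor effects in each complex among members averaging 5 CPM or more, isoform sets and 8 related genes. Ndufs6, Ndufa6, Ndufa5, Ndufaf7, Cox6c, Cox7a2l, Sdhaf1, Acad9, Ndufb4 and Ndufs3, and Ndufb8 and Atp5k beside the calls under other settings, were chosen after their values were seen. Members and lists were chosen with earlier results of these data known.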

Additional observations from a re-analysis of the deposited data

How the results depend on the processing

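Under every alternative that was run, both medians of all 7 contrasts moved by no more than an SD between libraries. No mitochondrial member was called in any alternative. Leaving out 1 of 3 libraries can hardly move a median by more than that SD, so those alternatives are no test of stability. In them the mitochondrial median for the agonist without tumor ran from -0.545 to 0, in place of -0.20. For the average agonist effect the nuclear median ran from -0.242 to -0.153 when each library was left out in turn and from -0.217 to -0.165 under the other settings, with 74 to 86 of 93 members below 0. The mitochondrial median changed sign when single libraries were left out, from -0.182 to 0.115 for the average agonist effect and from -0.242 to 0.121 for the tumor without agonist. The nuclear median did so too, from -0.197 to 0.007 for the tumor without agonist, -0.102 to 0.023 for the tumor with agonist and -0.01 to 0.205 for the interaction. In place of 0, the number of nuclear members called for the average agonist effect was 1 with DESeq2 (Ndufb8), 1 with protein-coding transcripts only (Ndufb8, adjusted p 0.0393 in edgeR) and 0 to 1 when each library was left out. For the agonist without tumor it was 0 to 1 when each library was left out, with Ndufaf7 called without NoTumor-CD40 library 2. With the title number as a replicate block, 2 nuclear members were called for the average agonist effect, Ndufb8 (-0.59, adjusted p 0.0181 in edgeR) and Atp5k (-0.56, adjusted p 0.0284 in edgeR). The labels do not say that this number marks shared samples. Of 15 pairs of libraries with the same number, 3 had a correlation of deviations over all genes above 0.1 (range 0.004 to 0.228). For this reason the numbers were not taken to pair the samples. Over the nuclear members alone the correlation ran from -0.299 to 0.615. The 091218 library was the highest of its group for 13 of 13 mitochondrial members in NoTumor-CD40, 12 in Tumor-NoCD40, 12 in Tumor-CD40 and 6 in NoTumor-NoCD40. An effect of the number on the members is therefore not excluded. With protein-coding transcripts only, the log2 ratio of the mitochondrial to the nuclear sum was higher in all 4 groups, at 2.32, 2.34, 2.38 and 2.69 in place of 2.07, 2.07, 2.12 and 2.44, with Tumor-CD40 last. The fold change of mt-Nd3 for the agonist with tumor was 0.044 with pseudogene copies added, an alternative chosen after seeing the data. The cause of these changes was not tested, apart from the mt-Nd3 value, which follows from the added counts.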
